A study of Mus musculus with 7 samples.

Results

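Binding of the glucocorticoid receptor (NR3C1) was examined around 8 genes of the AP-1 family: Fos, Fosb, Fosl1, Fosl2, Jun, Junb, Jund and Atf3. The regions were chosen by gene name, as the mm9 sequence within 100 kb on each side of an approximate gene start given to the nearest 10 kb. Peak summits from the 7 libraries were joined into sites wherever neighbours lay at most 200 bp apart, and 70 of the 35316 sites of the genome fell in these 8 windows. The series profiled the receptor by ChIP-seq, with an in-house antibody, in cultured mouse embryonic fibroblasts from dams at 14 to 17 days post coitum, used between passages 4 and 11. Cells were wild type or Klf15-/-, that is, lacking the zinc-finger transcription factor KLF15, and were exposed for 1 h to ethanol vehicle or to dexamethasone, a synthetic glucocorticoid. Wild-type cells gave 1 vehicle library, from pooled material, and 2 dexamethasone libraries, and Klf15-/- cells gave 2 libraries of each treatment. Nothing in the labels ties replicates to separate cultures or embryos, and their spread may therefore be technical.

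AP-1 is a dimeric transcription factor that binds DNA through a basic region and a leucine zipper. FOS proteins pair with JUN proteins, JUN proteins can also pair with each other, and ATF3 is a stress-induced relative that joins JUN partners or pairs with itself. Many of these genes are immediate-early genes of fibroblasts, induced within minutes by serum and growth factors. The ligand-bound glucocorticoid receptor is known both to bind DNA directly and to be held at AP-1 sites through JUN and FOS, and AP-1 is known to keep chromatin open at many receptor sites.

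The Jun and Fosl2 promoters are shown because of the receptor sites in their windows. Jun held the highest-ranked site of the family, 45.2 kb from its point. The Fosl2 point had a site on either side of it. Both promoters come from RefSeq, build GRCm38.p6, which matched 7 of the 8 genes by symbol (not Fosl1). They span 300 bases around the gene start and run 5′ to 3′. Jun is at chr4:95052173-95052472 on the minus strand and Fosl2 at chr5:32136222-32136521 on the plus strand. Capitals mark a match to TGACNTCA, a cAMP-response-type element that JUN and ATF proteins can bind.
Jun: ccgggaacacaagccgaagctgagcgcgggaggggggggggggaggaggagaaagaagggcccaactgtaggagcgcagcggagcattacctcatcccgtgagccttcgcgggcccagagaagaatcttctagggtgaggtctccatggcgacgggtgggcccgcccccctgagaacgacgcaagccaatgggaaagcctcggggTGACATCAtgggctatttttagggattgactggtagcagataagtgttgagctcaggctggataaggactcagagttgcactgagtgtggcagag
Fosl2: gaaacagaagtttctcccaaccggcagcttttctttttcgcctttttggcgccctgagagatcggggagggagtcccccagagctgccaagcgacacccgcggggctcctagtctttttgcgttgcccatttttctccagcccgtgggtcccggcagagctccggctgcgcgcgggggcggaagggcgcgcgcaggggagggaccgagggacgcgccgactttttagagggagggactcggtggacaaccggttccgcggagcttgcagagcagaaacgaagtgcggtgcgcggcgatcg
The letters searched, on both strands, were AGAACA (the hexamer of the receptor's binding element), TGANTCA (the AP-1 site) and TGACGTCA (the cAMP response element). None of the 7 promoters held any of them, against 18.9%, 7.79% and 1.80% of the 32544 promoters in the table. TGACNTCA was added after the sequences were seen. It overlaps TGACGTCA, and 8.62% of promoters held it, among these 7 only that of Jun, with the letters TGACATCA. A match is letters only, and the mm9 summits were not placed on these GRCm38 sequences.

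A few facts of the lists bear on every result. Each list is that of 1 library and held 7325 to 20169 summits, and the vehicle lists were the shortest. Each score was therefore used only as a percentile within its own list, from 0 (lowest) to 100 (highest). A percentile of one list set beside that of another shows where a site stood in each, not a change in binding. The first Klf15-/- vehicle library stood apart: it had 414 neighbouring summits under 200 bp apart against 0 to 4 elsewhere, and 29.4% of its sites were in no other list, against 9.44% to 15.3%. An exact permutation test, two-sided, has a smallest possible p of 0.333 for 2 libraries against 2, and of 0.0571 for the 4 dexamethasone against the 3 vehicle libraries. No test of the groups was therefore made.

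Receptor summits around the AP-1 genes were more numerous after dexamethasone in both genotypes. The 8 windows together held, in wild-type cells, 19 summits with vehicle and 34 and 35 with dexamethasone, a ratio of 1.82. In Klf15-/- cells they held 5 and 11 with vehicle and 32 and 41 with dexamethasone, a ratio of 4.56, or 3.32 without the first and 7.30 without the second vehicle library. The treatments did not overlap in either genotype, while the dexamethasone libraries of the genotypes did. List length moves these counts. Per 10000 summits of the list, the windows held 18.9 in wild type with vehicle and 21.2 ± 0.763 (SD, n = 2) with dexamethasone. In Klf15-/- cells they held 10.2 ± 4.79 (n = 2) with vehicle, from 6.83 to 13.6, and 18.2 ± 3.06 (n = 2) with dexamethasone, from 16.0 to 20.3. The ratios on this scale were 1.12 and 1.78. In lists cut to the length of the shortest they were 0.964 and 1.29, so the direction in wild type was not kept.

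**Figure D1:**
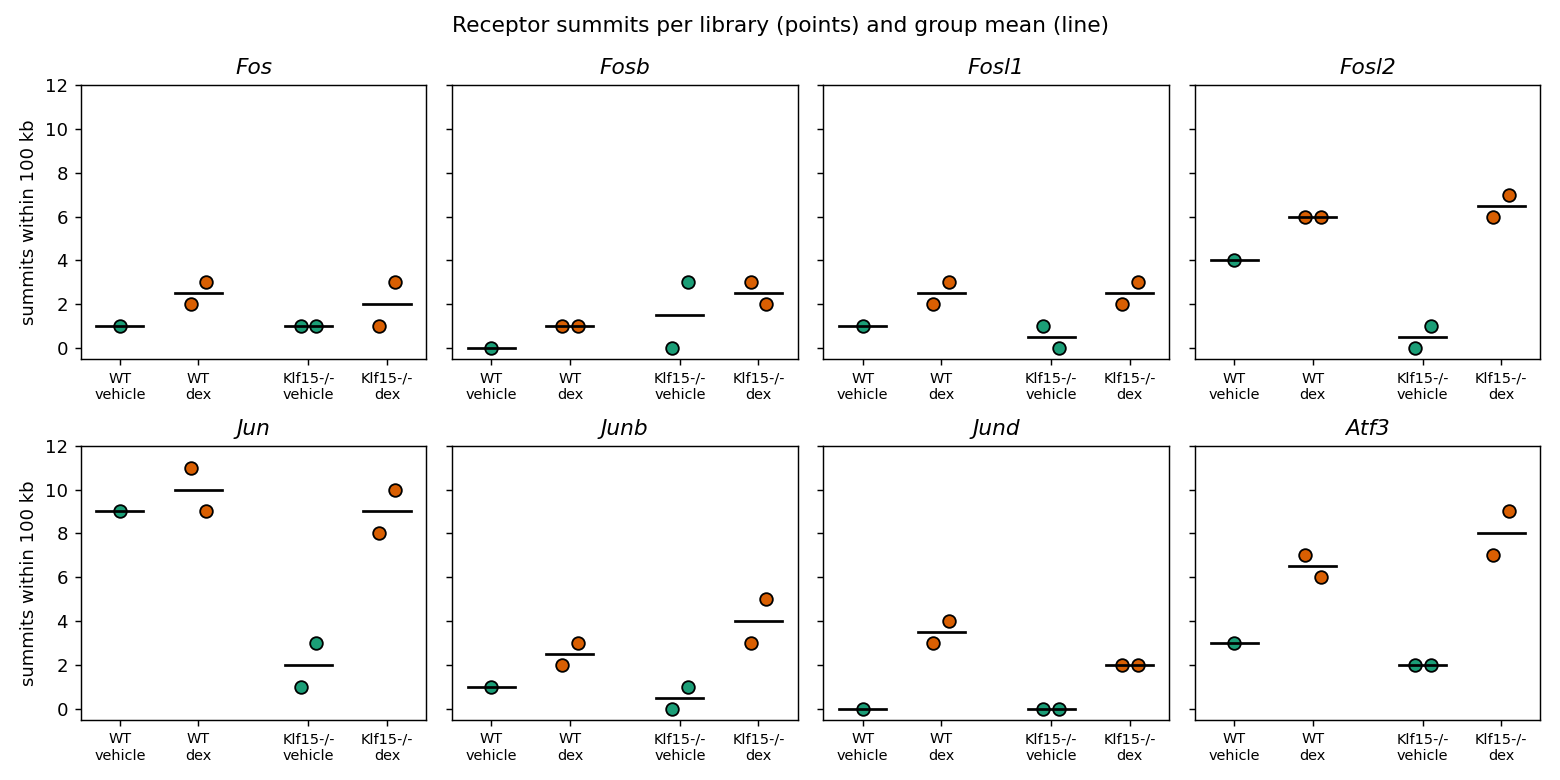
Number of receptor summits within 100 kb of each gene's approximate start (vertical axis) in each group (horizontal axis). Points are libraries and lines are group means. Jun had 8 to 11 summits in every dexamethasone library and 9 in wild-type vehicle, against 1 and 3 in Klf15-/- vehicle, and Jund had none with vehicle.

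The windows differed in how many sites they held, in any list. Atf3 had 15 sites and Jun 14, Fosl2 had 9, Fosb, Fosl1 and Junb had 7 each, Fos had 6 and Jund 5. This order depended on the linkage and the window: Jun had 18 and Atf3 16 at a gap of 100 bp, and both had 13 at 500 bp. In windows of 50 kb on each side Atf3 and Jun had 9 each, Fosb 6, Fosl1 and Junb 5 each, Jund 4, and Fos and Fosl2 3 each. Over 13197 adjoining 200 kb windows tiled along the autosomes and X, the median was 1 site. Windows with at least 15 sites made up 0.977% of these, with at least 14 sites 1.39%, and with at least 9 sites 7.24%. Those with at least 7 sites made up 12.9%, with at least 6 sites 16.9%, and with at least 5 sites, the count at Jund, 22.1%. The tiled windows include gene-poor sequence, unlike windows placed on genes, so these shares describe the genome and do not set the AP-1 genes apart from other genes. Of the 70 sites, 25 were in 1 list alone (35.7%), against 38.7% of all sites. At Atf3 these were 7 of 15 sites and at Jun 2 of 14. The rule's edge mattered at Fosl2: a site 101.8 kb below its point, just outside, was held by all 7 lists at percentiles 94.1 and 95.2 in wild type with dexamethasone. Just inside, 98.4 kb below the point, a site was held by 1 list at percentile 21.7.

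**Figure D2:**
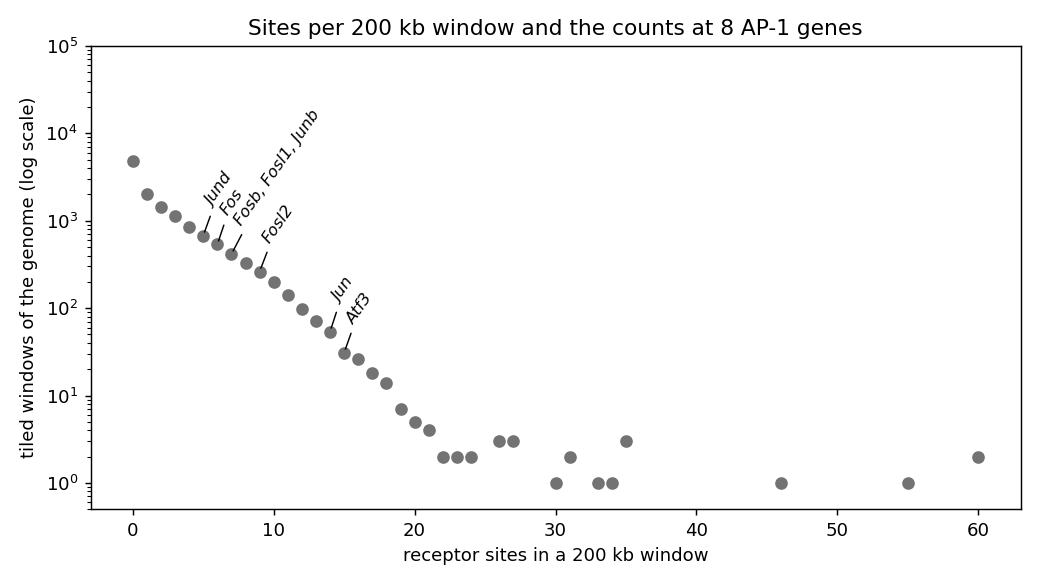
Number of tiled 200 kb windows of the genome (points, vertical axis on a log scale, 13197 in all) by the receptor sites they hold (horizontal axis), with the counts of the 8 gene windows marked. Jun (14 sites) and Atf3 (15) lie in the thin upper part of the distribution, and Jund (5) is the lowest of the 8.

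The sites near these genes were mostly of low to middling rank, apart from those at Jun. Of the 142 window summits in the 4 dexamethasone lists, 59 stood above percentile 50 (41.5%, against 50.1% of all summits of these lists) and 16 stood above percentile 80 (11.3%, against 20%), both backgrounds being fixed by the scale. Of these 16, 12 were at Jun, 3 at Atf3 and 1 at Fos. The median percentile was 63.3 at Jun, from 38 summits, 49.3 at Fos, 46.4 at Fosl2 and 40.1 at Atf3. It was 28.2 at Jund, 25.8 at Junb, 24.0 at Fosl1 and 23.6 at Fosb. Without Jun the median over the other 7 genes was 35.6. Many of these summits are the same sites counted in several lists, so they are not independent.

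**Figure D3:**
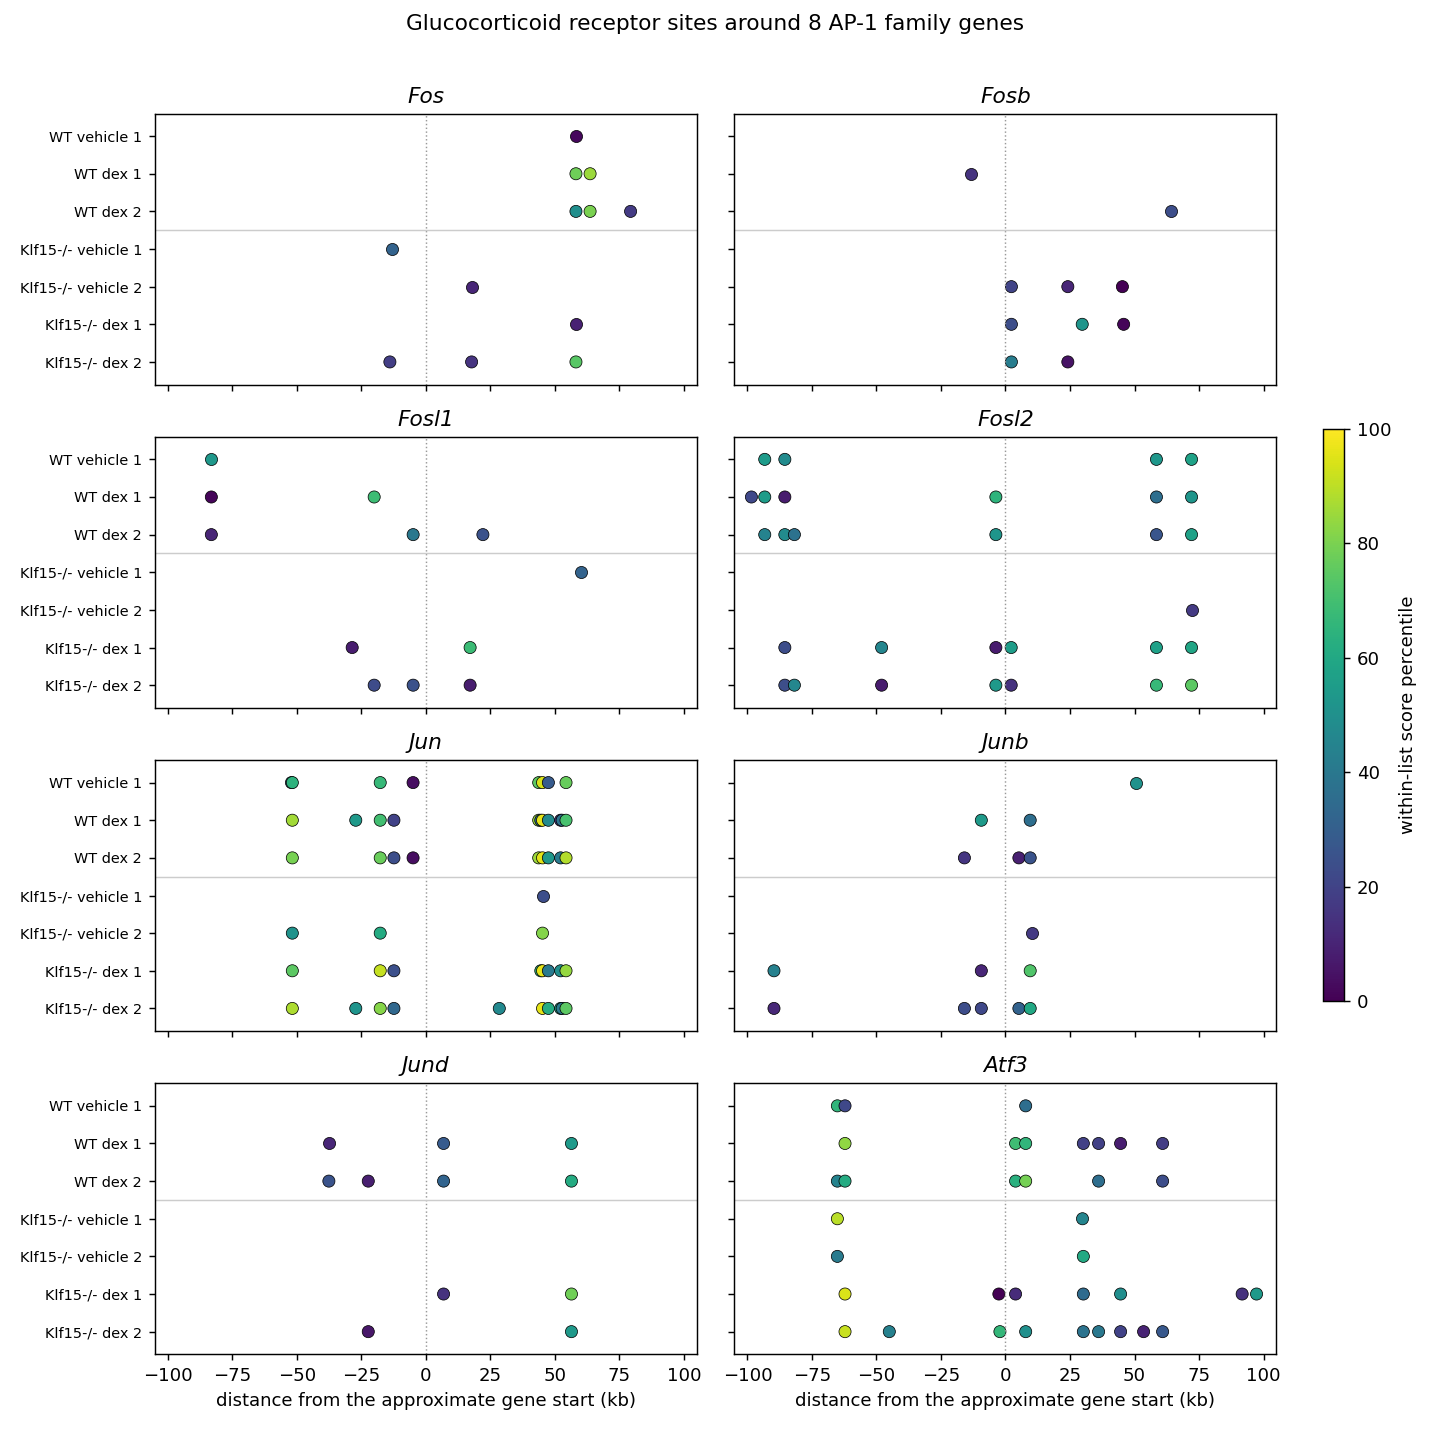
Position of every receptor site relative to the approximate start of each gene (horizontal axis, kb; positive towards higher coordinates) in each of the 7 lists (rows). Colour is the within-list score percentile. The Jun panel shows a dense group of 7 sites between 43.7 and 54.3 kb above the point, of which those at 43.7, 45.2 and 54.3 kb rank high, and the Fosb and Jund panels are sparse.

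Among the Fos subfamily, whose proteins need a JUN partner, Fos itself had 3 sites within 17.7 kb of its point, none above percentile 31.3, and 3 from 58.2 to 79.3 kb above it. The site at 86868112 to 86868226 on chromosome 12, 58.2 kb above the point, was held by all 4 dexamethasone lists. Its percentiles were 78.0 and 49.3 in wild type, with 9.32 and 74.1 in Klf15-/-, and 2.08 in the wild-type vehicle list, so replicates of a genotype differed widely. A second site, 63.6 kb above the point (86873637 to 86873656), stood at 85.0 and 79.8 in wild type with dexamethasone. It was absent from the other 5 lists, and the closest summit of Klf15-/- cells with dexamethasone lay at 5.41 kb. In the gene order of GRCm38, Jdp2 and then Batf, which encode other AP-1 relatives, follow Fos on the side where these sites lay. Genes outside the family flank the members too, such as Nek9 and Tmed10 before Fos, and Fggy and Hook1 after Jun. Distances to such genes were not used, and which gene a site acts on was not tested. The nearest site held by at least 2 lists, 17.7 kb above the point, ranked low, at 10.9 in the second Klf15-/- vehicle list and 15.1 in the second Klf15-/- dexamethasone list. The highest-ranked vehicle site, 13.2 kb below the point, was in the first Klf15-/- vehicle list alone, at percentile 31.3.

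Fosb, which encodes a FOS protein of the same immediate-early class, had the lowest ranks. Its site on chromosome 7 from 19902206 to 19902372, 2.29 kb above the point, was found in Klf15-/- cells alone, at 20.1 in the second vehicle list and 23.6 and 41.9 with dexamethasone. The nearest wild-type dexamethasone summit lay 15.6 kb away. No Fosb site was held by both wild-type dexamethasone lists, and the wild-type vehicle list had none in the window. The wild-type summits in the window were 1 per dexamethasone library, at separate sites, and the Klf15-/- dexamethasone libraries had 3 and 2.

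Fosl1, which encodes FRA-1, had no site shared by all 4 dexamethasone lists. The site 83.1 kb below the point (chromosome 19, 5366821 to 5366972) was in all 3 wild-type lists, at 53.3 with vehicle and 1.53 and 10.3 with dexamethasone, and in no Klf15-/- list. The site 17.2 kb above (5467130 to 5467197) was in both Klf15-/- dexamethasone lists alone, at 68.3 and 8.12, with a wild-type summit 4.92 kb away. The sites 20.0 kb and 4.91 kb below the point were each in 1 dexamethasone list of either genotype. Their percentiles were 68.5 in wild type and 22.7 in Klf15-/- for the first, and 40.0 and 25.3 for the second.

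Fosl2, which encodes FRA-2, had 9 sites, and 8 of them were in at least 2 lists. On chromosome 5, from 32436224 to 32436318 and 3.73 kb below the point, a site was held by all 4 dexamethasone lists and by no vehicle list. It stood at 64.8 and 52.3 in wild type, with 7.56 and 53.6 in Klf15-/-, and the nearest vehicle summit was 62.1 kb away. On the other side of the point, 2.21 kb above it (32442197 to 32442225), a site was in both Klf15-/- dexamethasone lists alone, at 55.1 and 14.2. The highest-ranked Fosl2 site, 72.1 kb above (32512028 to 32512151), was in 6 lists: 57.7 in wild-type vehicle, 52.1 and 57.3 in wild-type dexamethasone, 17.0 in the second Klf15-/- vehicle list, and 58.9 and 74.8 in Klf15-/- dexamethasone. At the lower end of the window, a site 93.3 kb below the point (32346661 to 32346780) was in the 3 wild-type lists alone, at 54.7 with vehicle and 54.7 and 44.6 with dexamethasone. A site 48.0 kb below (32391973 to 32392027) was in both Klf15-/- dexamethasone lists alone, at 45.8 and 7.72. Fosl2 thus held sites restricted to either genotype within the same window, as Fosl1 did. Over the genome, 12.8% of the sites in both wild-type dexamethasone lists were in neither Klf15-/- dexamethasone list. The share the other way round was 23.2%.

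Among the Jun subfamily, Jun, which encodes c-JUN, the strongest transactivator of the family, had the top site of all 8 windows. On chromosome 4 from 94765126 to 94765302, 45.2 kb above the point, it was the 1 site of 70 held by all 7 lists (1.43%, against 6.22% of all sites). Its percentiles were 93.9 in wild-type vehicle, 95.7 and 95.3 in wild-type dexamethasone, 23.5 and 81.2 in Klf15-/- vehicle, and 95.9 and 95.7 in Klf15-/- dexamethasone. All libraries but the Klf15-/- vehicle pair placed it between 93.9 and 95.9, and the low value came from the library that stood apart. The sites 51.7 kb and 17.7 kb below the point were each held by 6 lists, all but that same library. The first (94668214 to 94668337) stood at 64.2 and 51.5 with vehicle and from 74.9 to 87.8 over the 4 dexamethasone lists. The second (94702277 to 94702391) stood at 67.1 and 61.1 with vehicle and from 69.9 to 91.4 with dexamethasone. The high-ranked Jun sites were thus found with vehicle as well as with ligand.

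Around the top Jun site lay a dense group, with 7 sites from 43.7 to 54.3 kb above the point. The site 54.3 kb above stood at 76.9 in wild-type vehicle, from 71.0 to 88.4 over the 4 dexamethasone lists, and was in neither Klf15-/- vehicle list. The site 43.7 kb above (94763740 to 94763742) was in the 3 wild-type lists alone, at 74.9 with vehicle and 84.8 and 85.5 with dexamethasone. The nearest Klf15-/- dexamethasone summit lay 0.811 kb from it. Dexamethasone-only sites held by all 4 dexamethasone lists lay 12.4 kb below the point (94707617 to 94707666, percentiles 19.6 to 33.3) and 52.2 kb above (94772204 to 94772246, percentiles 15.9 to 57.0). In every dexamethasone list both ranked below the sites 51.7 and 17.7 kb below the point, which were also found with vehicle, and vehicle summits lay 5.25 and 2.12 kb from them. Nearest to the point, 4.94 kb below it, a site stood at 3.64 in wild-type vehicle and 3.89 in 1 wild-type dexamethasone list.

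Junb encodes a JUN protein that can restrain c-JUN. In its window 2 of 7 sites had a vehicle summit, as at Fosl1, against 16188 of the 35316 sites of the genome. Its leading site on chromosome 8, from 87509548 to 87509601 and 9.57 kb above the point, was in all 4 dexamethasone lists and no vehicle list. It stood at 35.9 and 25.8 in wild type, with 72.5 and 60.0 in Klf15-/-, and these are ranks in lists of different lengths. A vehicle summit of the second Klf15-/- library, at percentile 16.9, lay 0.534 kb away. The site 89.7 kb below the point (87410279 to 87410321) was in both Klf15-/- dexamethasone lists alone, at 43.6 and 11.1. The site 5.19 kb above was in the second dexamethasone list of each genotype, at 8.97 and 30.9. The highest vehicle summit, at 51.0 in wild type, 50.8 kb above the point, was in no other list.

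Jund, the JUN gene with the steadiest expression in many cells, was the window without any vehicle summit. The nearest vehicle summit to any of its sites was 127.4 kb away. Its leading site, 56.4 kb above the point (chromosome 8, 73276389 to 73276468), was held by all 4 dexamethasone lists, at 54.0 and 61.0 for wild type, and at 78.3 and 53.5 for Klf15-/-. The site 6.88 kb above the point was in both wild-type dexamethasone lists, at 28.2 and 31.7, and in the first Klf15-/- one, at 14.4. Wild-type dexamethasone libraries had 3 and 4 summits in the window and Klf15-/- ones 2 and 2. The whole of chromosome 8, with Junb and Jund, held 5.76% ± 0.0472 (SD, n = 2) of the summits in wild type and 5.00% ± 0.0510 (n = 2) in Klf15-/- after dexamethasone. For chromosome 19, with Fosl1, the shares were 3.29% ± 0.0227 (n = 2) and 2.81% ± 0.029 (n = 2). With vehicle both were also lower in Klf15-/-. Chromosome 8 then held 5.79% in wild type (n = 1) and 4.71% ± 0.193 (n = 2) in Klf15-/-, and chromosome 19 held 3.28% and 2.42% ± 0.124. The other chromosomes of the 8 genes were higher in Klf15-/- after dexamethasone. Chromosome 1, with Atf3, held 6.56% in wild type and 7.29% in Klf15-/-, and chromosome 7, with Fosb, 3.72% and 4.27%. The differences on chromosomes 4, 5 and 12 were smaller. The part of these shares in the counts at the genes was not tested.

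Atf3 had 15 sites, and 7 of them were in 1 list alone. On chromosome 1 a site from 192947781 to 192947870, 62.2 kb below the point, stood at 83.5 and 61.2 in wild type, with 94.3 and 91.6 in Klf15-/- with dexamethasone. It was at 21.7 in the wild-type vehicle list and in neither Klf15-/- vehicle list. A neighbouring site 65.1 kb below the point (192944852 to 192944867), 2.93 kb from the nearest Klf15-/- dexamethasone summit, was instead held mainly by vehicle lists. It was in all 3 vehicle lists, at 65.5 in wild type, with 89.8 and 41.2 in Klf15-/-, and in 1 dexamethasone list, the second of wild type, at 44.7. Without the first Klf15-/- vehicle library, which gave the 89.8, it was still in both other vehicle lists. Batf3, the gene of another AP-1 partner, lies on this side of Atf3 in the GRCm38 gene order, with Fam71a between them. Its distance was not used, and a link of these sites to any of these genes was not tested. Near the point, the site 3.91 kb above it was in 3 dexamethasone lists and no vehicle list, at 68.8 and 63.4 in wild type and 12.3 in Klf15-/-. Closer still were sites of 1 list each. The site 2.57 kb below stood at 0.27 in the first Klf15-/- dexamethasone list, and that 2.16 kb below at 66.0 in the second. The site 7.82 kb above was at 35.6 in wild-type vehicle, 65.3 and 78.9 in wild-type dexamethasone, and 49.8 in the second Klf15-/- dexamethasone list.

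**Figure D4:**
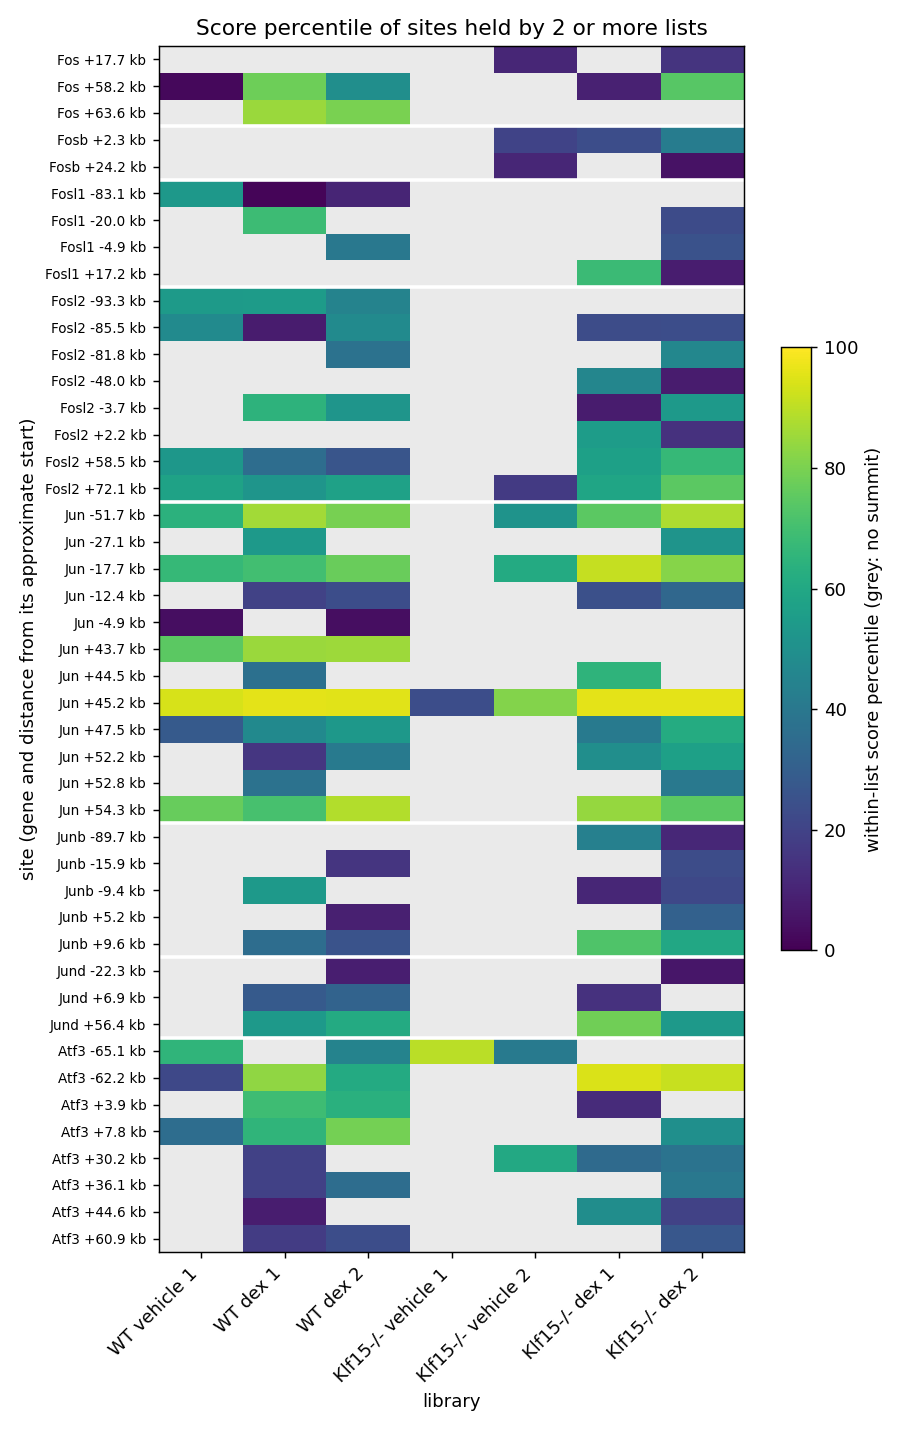
Within-list score percentile (colour) of the 45 sites held by 2 or more lists (rows, by gene and distance from the approximate start) in the 7 libraries (columns). Grey marks no summit. The Jun site at 45.2 kb is filled in every column, while most rows are grey in the Klf15-/- vehicle columns.

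Read over all 8 windows and against all 3 vehicle lists, the share of sites found with ligand alone was near that of the genome. In wild type, 24 window sites were held by both dexamethasone lists, and 10 of them had no vehicle summit (41.7%, exact 95% binomial interval 22.1 to 63.4%, counting error only), against 38.5% of all such sites. In Klf15-/- cells the count was 11 of 23 (47.8%, 26.8 to 69.4%), against 43.2%. Several single libraries moved these counts. Without the wild-type vehicle library they were 20 of 24 (83.3%, 62.6 to 95.3%, against 57.7% of all such sites) and 17 of 23 (73.9%, 51.6 to 89.8%, against 56.2%). Both shares were then above those of the genome, but the Klf15-/- interval includes the genome share. These counts rest on the Klf15-/- vehicle lists alone, the shortest of the series, with the library that stood apart among them. Wild-type sites were then set against vehicle lists of the other genotype only. The wild-type count was 19 without either of its dexamethasone libraries, and the Klf15-/- count was 26 and 20 without its first or second. Leaving out a dexamethasone library loosens the rule, so these higher counts follow from its construction. The matching shares of the genome were not computed for them. Without the first Klf15-/- vehicle library the counts were 10 and 11. Jun contributed 6 of the 14 wild-type sites that did have a vehicle summit.

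The division of the window sites between genotypes was also near that of the genome. The 16 dexamethasone-only sites of either genotype included 5 in all 4 dexamethasone lists (31.2%, 11.0 to 58.7%, against 33.4%), at Fosl2, Jun (2), Junb and Jund. There was 1 in wild type only, at Fos (6.25%, 0.158 to 30.2%, against 12.5%). There were 4 in Klf15-/- only, at Fosl1, Fosl2 (2) and Junb (25.0%, 7.27 to 52.4%, against 27.8%). The first count was 11 without the wild-type vehicle library. The wild-type-only count was 5 and 4 without the first or second wild-type dexamethasone library, 3 without either Klf15-/- dexamethasone library and 4 without the wild-type vehicle library. The Klf15-/--only count was 9 and 11 without the first or second Klf15-/- dexamethasone library. Leaving out a library loosens the rule in each of these cases, so higher counts follow from its construction. The matching shares of the genome were not computed. Counting sites with a vehicle summit too, 4 of the 24 wild-type sites were in neither Klf15-/- dexamethasone list (16.7%, against 12.8%), and 5 of the 23 Klf15-/- sites were in neither wild-type one (21.7%, against 23.2%). Replicates overlapped less than over the genome, with intervals that include its shares. Of 45 wild-type window sites, 24 were in both dexamethasone lists (53.3%, 37.9 to 68.3%, against 59.3%). Of 50 Klf15-/- sites, 23 were (46.0%, 31.8 to 60.7%, against 58.9%).

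With vehicle alone, the wild-type list held 18 window sites, and 5 of them were in at least 1 Klf15-/- vehicle list (27.8%, 9.7 to 53.5%), against 50.3% of all wild-type vehicle sites. Those 5 were at Jun (3), Fosl2 and Atf3. The Klf15-/- vehicle lists were shorter and held 5 and 11 window sites, and the part of list length in this difference was not tested. Of the 27 window sites with a summit of any vehicle list, 10 were held by all 4 dexamethasone lists (37.0%, against 38.3%), and 7 were in no dexamethasone list (25.9%, against 27.7%).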

How the data were processed

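The 7 libraries are single-end ChIP-seq, per the labels' protocols, and the tools named in the submitters' processing notes are CASAVA 1.4, Bowtie2 2 and SAMtools, with build mm9. Which peak caller, control and threshold were used is not given in the sources used here. The deposited files list, per library, summits of 1 bp with a score that is the authors' own value on an unstated scale; read depth is unknown, and longer lists may reflect depth. All other values were computed here with Python 3.11.15, numpy 2.4.6, pandas 2.3.3 and scipy 1.17.1, with figures from matplotlib 3.10.9. Summits were linked over the genome at a gap of at most 200 bp, and percentiles use mean ranks for ties. Coordinates are mm9, counted from 1, except promoters, and distances run from the middle of a site to the rule's point, which is approximate. Gene order came from the protein-coding genes of a GRCm38 table, without coordinates. The code for linkage and classes was run on simulated lists, where 200 of 200 planted sites of each class were found. Those sites lay far apart, were missing from no list of their class and had no vehicle summit nearby. The run therefore checks the code and not how well the classes hold in real lists. Per gene, sites were named if they ranked highest with dexamethasone or with vehicle, lay nearest the point in at least 2 lists, were held by all 4 dexamethasone lists alone or by all 7 lists, or were restricted to 1 genotype after dexamethasone. A few others were named after their values were seen. The members, lists and alternatives were chosen with earlier results of these data known. Same-numbered libraries carry no shared source in the labels.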

Additional observations from a re-analysis of the deposited data

Results flagged for a closer look

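At 2 genes, the number of summits per 10000 of the list was lower after dexamethasone in wild type and higher in Klf15-/-, in every library. The difference was not tested, and the wild-type vehicle group is 1 library. Both genes were picked out of the family by this pattern. How often tiled windows of the genome show the same opposite moves was not computed. The pattern therefore does not set these genes apart from other windows, and no effect of genotype is drawn from it. At Fosl2 the wild-type value was 3.99 with vehicle and 3.84 and 3.54 with dexamethasone, a mean of 3.69. In Klf15-/- cells it was 0 and 1.24 with vehicle and 3 and 3.47 with dexamethasone. At Jun the wild-type value was 8.97 with vehicle and 7.04 and 5.32 with dexamethasone, a mean of 6.18. In Klf15-/- cells it was 1.37 and 3.71 with vehicle and 4 and 4.96 with dexamethasone. The counts behind these are small: at Jun 9 summits with vehicle against 11 and 9 with dexamethasone in wild type, and at Fosl2 4 against 6 and 6. As plain counts, neither gene had fewer summits after dexamethasone in wild type.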

How the results depend on the processing

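Alternatives gave 150 values, of which 91 were close to the reported ones (1.5 times for counts, the spread between libraries for ratios and percentiles), 58 moved and 1 reversed; causes beyond the construction of each alternative were not tested. Values follow the order wild type, Klf15-/-, both genotypes, wild type only and Klf15-/- only for dexamethasone-only sites. A gap of 500 bp gave 2 wild-type-only sites. Windows of 50 kb gave 44 sites, 6 dexamethasone-only sites in wild type, 3 in both and 0 in wild type only, a wild-type ratio of 2.64 and a median percentile of 36.4 (against 43.6). Summits above the median score gave 31 sites, counts of 6, 3, 2, 3 and 1, and a wild-type ratio of 1.36. Lists of equal length (7325 summits) gave 34 sites, counts of 4, 1, 1, 2 and 0, and ratios of 0.964 in wild type, a reversal, and 1.29 in Klf15-/-. Per 10000 summits the ratios were 1.12 and 1.78. Vehicle lists of the same genotype alone gave 17 in Klf15-/-. With 1 dexamethasone replicate as enough the counts were 28, 35, 20, 8 and 15. Leaving out each library in turn gave 64 to 68 sites, counts of 10 to 20, 11 to 26, 5 to 11, 1 to 5 and 4 to 11, ratios of 1.79 to 1.84 and 3.32 to 7.3, and medians of 41.3 to 44.7; the wild-type ratio has no value without its single vehicle library. With a replicate block of same-numbered libraries, pair 1 gave 20, 22, 10, 10 and 12, and pair 2, without a wild-type vehicle library, gave 30, 33, 19, 11 and 14. Same-numbered dexamethasone libraries had no shared deviation in rank (correlation of deviations -0.0058 over 30827 sites). This cannot show whether they were prepared together. Read depth is unknown, so a missing summit does not show missing binding.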
